A study of Rattus norvegicus with 36 samples.

Results

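Liver RNA of rats given decabromodiphenylethane (DBDPE), a brominated flame retardant, at 97.1 mg/kg was compared with that of rats given the vehicle alone. The comparison took the 6 arrays labelled as this dose and the 6 labelled as vehicle, 12 of the 36 arrays of the series, and all 31042 probe sets that are not array controls. The animals were male Sprague Dawley rats, 7 weeks of age when the study began, dosed by gavage on each of 5 days with 5 ml of corn oil per kg body weight that held DBDPE or none. The left liver lobe was taken 1 day after the last dose, and its RNA was measured on Affymetrix 3′ IVT arrays, which give a log2 signal per probe set. The other doses of the series were 0.1, 0.97, 9.71 and 970 mg/kg, again with 6 samples each, and the lower 3 serve below as a second reference. Each sample was taken to be 1 rat; the labels number the samples and say no more, so the p-values measure the spread between these samples.

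The aryl hydrocarbon receptor (AhR) is a ligand-activated transcription factor that waits in the cytosol with chaperones, enters the nucleus on binding a ligand and pairs there with Arnt. The pair binds short DNA elements beside target genes, of which Cyp1a1 and Cyp1a2 are the best known in liver. Cyp1a1 encodes a cytochrome P450 that oxidises flat aromatic compounds and is nearly silent in unexposed rat liver, whereas Cyp1a2 encodes its close relative, which hepatocytes make without any inducer. Ahrr and Tiparp are targets whose products feed back on the receptor.

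Promoter sequences of 5 of 7 AhR genes looked for were found in the RefSeq table (build GRCr8, 250 bases before to 50 bases after the gene start), and 3 are shown, those of a gene that rose at this dose and of both feedback genes. The first, of Cyp1a2, has its TATAAA in capitals, and the other two have the AhR core element GCGTG in capitals, written as CACGC where it lies on the opposite strand. GCGTG and TATAAA were searched on both strands; a GCGTG and a TATAAA cannot overlap.
Cyp1a2, chr8:66978100-66978399, minus strand: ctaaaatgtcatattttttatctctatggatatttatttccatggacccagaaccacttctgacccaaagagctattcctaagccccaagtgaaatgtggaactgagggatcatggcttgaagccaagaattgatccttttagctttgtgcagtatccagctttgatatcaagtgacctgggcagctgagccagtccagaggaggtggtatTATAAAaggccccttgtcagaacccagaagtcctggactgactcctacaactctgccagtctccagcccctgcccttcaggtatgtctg
Ahrr, chr1:30821969-30822268, plus strand: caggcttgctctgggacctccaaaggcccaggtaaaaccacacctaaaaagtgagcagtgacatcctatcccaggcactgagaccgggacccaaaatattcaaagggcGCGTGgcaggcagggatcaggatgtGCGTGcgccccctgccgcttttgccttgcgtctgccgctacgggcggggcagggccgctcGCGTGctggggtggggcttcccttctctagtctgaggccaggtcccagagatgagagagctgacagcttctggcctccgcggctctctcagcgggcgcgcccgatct
Tiparp, chr2:152063519-152063818, plus strand: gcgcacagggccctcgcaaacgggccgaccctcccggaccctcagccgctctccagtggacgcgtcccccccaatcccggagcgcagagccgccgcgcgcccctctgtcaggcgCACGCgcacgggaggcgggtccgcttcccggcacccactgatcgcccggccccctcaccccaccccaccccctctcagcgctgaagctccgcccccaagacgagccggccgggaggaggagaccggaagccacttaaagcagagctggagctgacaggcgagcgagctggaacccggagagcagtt
The Cyp1a2 window held 0 GCGTG and 1 TATAAA, 39 bases before the start. The Ahrr window held 3 GCGTG, at 142, 117 and 57 bases before the start, and the Tiparp window held 1, at 136 bases. Of 33469 promoter windows of the same length, 29.7% held GCGTG, 3.588% held it at least 3 times and 14.22% held TATAAA. A match is only a run of letters, and its absence from this window says nothing of elements farther away.

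Cyp1a1 and Cyp1a2 were the genes that rose at 97.1 mg/kg. They were 2 of 31042 probe sets, or 0.00644%, with an adjusted p under 0.05 (limma, linear model over all 36 samples, Benjamini-Hochberg adjustment), and 0 probe sets fell. At an unadjusted p under 0.05, limma gave 846 probe sets higher (2.73%) and 838 lower (2.7%), 5.42% in all, where 1552.1 probe sets would be expected if none differed. The 95% interval of the difference lay within 1.5-fold for 97.7% of probe sets and within 2-fold for 99.5%. These shares cover all probe sets, without a filter on low signals and with those that name no gene. At a low signal a narrow interval need not place the RNA of a gene near its vehicle level. On simulated data the limma test recovered 96% of changes of 1.5-fold, but only 62% of the smallest changes tried. Far more probe sets were changed in the simulation than passed here, which makes the adjusted threshold easier to reach. Its noise was normal with the same spread in all groups. Both shares may therefore be too high for these arrays, and they do not show that few 1.5-fold changes exist.

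Cyp1a1 was low in every vehicle liver, with log2 signals of 4.35, 4.57, 4.71, 4.76, 4.51 and 4.54 in animals 1 to 6. At 97.1 mg/kg the signals were 8.58, 7.06, 8.93, 9.26, 6.66 and 7.86. The groups were far apart, and the lowest dosed animal still had 3.74 times the signal of the highest vehicle animal. The difference was 3.49 on the log2 scale (95% interval 2.92 to 4.05), an 11.2-fold rise, with an adjusted p of 6.45e-10 in limma. The table gives no detection calls, and the vehicle signal lies below the array medians of 5.07 to 5.12 and above that of Pnlip (4.07), a pancreatic gene, so if it is background the fold is a lower bound. The standard error of the difference was 0.28 in limma, which pools the spread of all groups, and 0.43 from these groups alone, in which the dosed animals scattered widely.

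Cyp1a2 started from a high signal, with 12.80, 12.91, 12.91, 12.74, 12.58 and 12.93 in the vehicle animals. The dosed animals had 13.29, 13.23, 13.49, 13.37, 13.23 and 13.30. Again the groups did not overlap, with the lowest dosed animal at 1.23 times the highest vehicle animal. The rise was 0.51 on the log2 scale (0.38 to 0.63), or 1.42-fold (adjusted p = 1.52e-05 in limma). Under the other settings of the fit, listed further below, its limma adjusted p was as high as 0.0425. An exact permutation test of the difference in means, two-sided over 924 divisions of the 12 samples, gave p = 0.00216 for each gene. This is the smallest p it can give, and it stayed 0.00216 after adjustment over 4 such tests. Groups that do not overlap always give this p, as 47 of the 31042 probe sets would. The adjustment leaves out that both genes were picked from all probe sets of the same arrays. The permutation test therefore adds nothing to the lack of overlap.

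**Figure D1:**
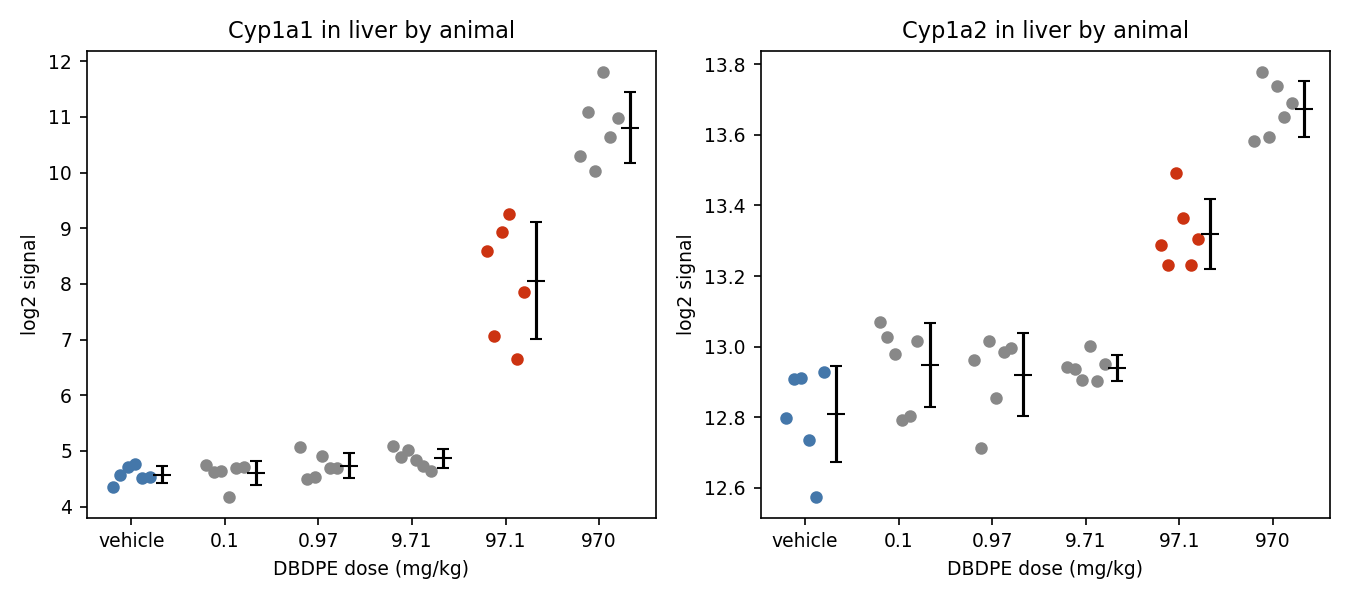
Log2 signal of Cyp1a1 (left) and Cyp1a2 (right) in each animal by dose in mg/kg, with the mean and SD of each group of 6 beside its points. Animals at 97.1 mg/kg (red) lie between 6.66 and 9.26 for Cyp1a1 and between 13.23 and 13.49 for Cyp1a2, above all vehicle animals (blue).

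Against 9.71 mg/kg, the next lower dose, the same 2 probe sets rose, 0.00644% of those tested, and 0 fell; 1124 (3.62%) had an unadjusted p under 0.05 in limma. The Cyp1a1 signals at 9.71 mg/kg were 5.09, 4.89, 5.01, 4.83, 4.73 and 4.64, all below those at 97.1 mg/kg. The difference was 3.19 (2.63 to 3.76), with an adjusted p of 7.61e-09 in limma and an exact permutation p of 0.00216. Cyp1a2 at 9.71 mg/kg had 12.94, 12.94, 12.91, 13.00, 12.90 and 12.95, again all below the animals at the higher dose. Its difference was 0.38 (0.25 to 0.50), with an adjusted p of 0.00798 in limma and an exact permutation p of 0.00216. Both permutation values follow from the lack of overlap alone. It no longer passed in limma without animal 3 of the 97.1 mg/kg group (difference 0.34, adjusted p = 0.0618) or with only the compared samples in the fit (adjusted p = 0.0567).

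Against the 18 animals at 0.1, 0.97 and 9.71 mg/kg together, Cyp1a1 was higher by 3.33 (2.86 to 3.79; limma adjusted p = 6.48e-12) and Cyp1a2 by 0.38 (0.28 to 0.48; limma adjusted p = 1.04e-04). These 2 probe sets were 0.00644% of those tested, 0 fell, and 993 (3.2%) had an unadjusted p under 0.05 in limma. At 970 mg/kg the differences from vehicle were larger, at 6.23 for Cyp1a1 and 0.86 for Cyp1a2. The comparisons share the 97.1 mg/kg animals, or the vehicle animals in the last case, so they are not independent of one another.

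The 6 dosed animals differed 6.07-fold from the highest to the lowest Cyp1a1 signal, animal 4 over animal 5, but only 1.20-fold for Cyp1a2. The SD of Cyp1a1 was 1.05 at 97.1 mg/kg and 0.15 in vehicle (n = 6 each). For Cyp1a2 the SD was 0.098 at 97.1 mg/kg and 0.137 in vehicle. Within the dosed group the animals with more Cyp1a1 tended to have more Cyp1a2, with Pearson's r of 0.784 (exact permutation p = 0.0556, 720 pairings) and Spearman's rho of 0.886 (exact permutation p = 0.0333). This was the 1 relation computed. Without animals 2 and 5, the farthest from the Cyp1a1 median, r was 0.533 over 4 animals, too few for a test.

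The other measured AhR genes gave no difference past the threshold. Ahrr and Aldh3a1 had vehicle means of 3.36 and 3.42, below that of Pnlip (4.07), so their probe sets may not show a small rise. Ahr, the receptor, had a lowest, median and highest signal of 5.06, 5.39 and 5.56 in vehicle and 4.89, 5.11 and 5.41 at 97.1 mg/kg, a difference of -0.20 (-0.54 to 0.15). Arnt, its partner, differed by 0.01 (-0.18 to 0.20), a sign that turned when single animals were left out. Ahrr, the repressor of the receptor, had 3.14, 3.33 and 3.74 in vehicle and 3.34, 3.41 and 3.63 in dosed animals. Tiparp, an ADP-ribosyltransferase that dampens the receptor, had 7.84, 8.01 and 8.76 against 7.89, 8.45 and 8.63. Both pairs of groups overlapped, with differences of 0.07 (-0.12 to 0.25) for Ahrr and 0.22 (-0.09 to 0.53) for Tiparp. Cyp1b1, the third inducible P450 of this family, had 4.99, 5.14 and 5.26 in vehicle and 4.99, 5.08 and 5.35 at 97.1 mg/kg, and its difference of -0.03 (-0.23 to 0.16) leaves a rise of over 1.5-fold outside the interval.

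Among the conjugating and detoxifying targets, Nqo1, a quinone reductase, had 1 high animal in each group, number 5, at 8.96 in vehicle and 9.53 at 97.1 mg/kg. The remaining animals lay between 7.14 and 7.55 in vehicle and between 7.27 and 7.51 when dosed. Its difference was 0.15 (-0.55 to 0.85), and -0.21 without dosed animal 5. Aldh3a1, an aldehyde dehydrogenase, differed by -0.10 (-0.26 to 0.05). A pair of probe sets shared by the Ugt1a glucuronosyltransferases differed by 0.09 and 0.04. Nfe2l2, which encodes the antioxidant regulator Nrf2, differed by 0.34 (0.06 to 0.62), with means of 10.28 ± 0.43 and 9.94 ± 0.12 (SD, n = 6) and a limma adjusted p of 0.900. Of the 13 measured genes of the AhR list, 9 lay above 0, 2 rose and the median difference was 0.07, beside 0.001 over all probe sets and 50.5% of probe sets above 0.

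The genes beside Cyp1a1 and Cyp1a2 on the chromosome showed nothing comparable. Of 8 neighbours measured, 0 passed the threshold in limma, 1 had an unadjusted p under 0.05, and the differences ran from -0.20 (Arid3b and Edc3) to 0.02 (Cplx3). Csk, a tyrosine kinase that restrains Src, differed by -0.01 (-0.11 to 0.10).

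**Figure D2:**
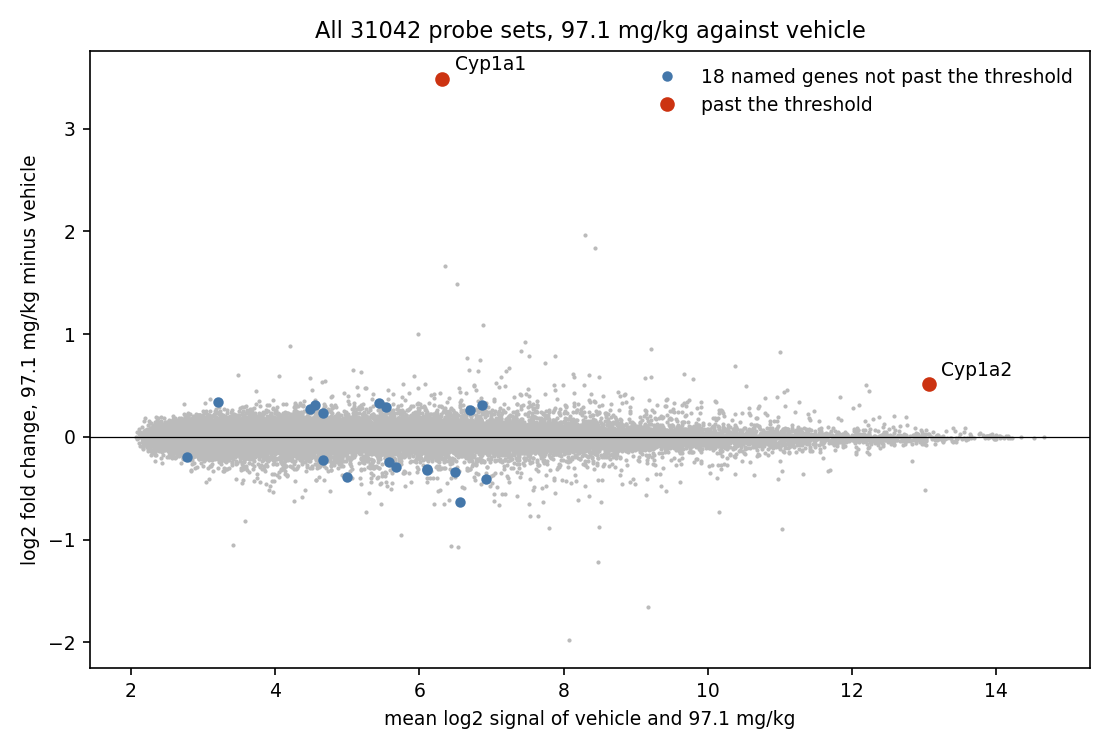
Log2 difference between 97.1 mg/kg and vehicle (vertical) against the mean log2 signal of both groups (horizontal) for all 31042 probe sets in grey, each from 6 animals a group. Cyp1a1 at 3.49 and Cyp1a2 at 0.51 (red) passed the threshold, and the 18 further named genes (blue) did not.

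The next genes by p-value had small differences, and none of the 18 named here passed the threshold: the limma adjusted p was 0.346 for Mmp16 and between 0.838 and 0.900 for the others. Over all probe sets, 47 (0.151%) had groups that did not overlap, 17 (0.0548%) with every dosed animal higher and 30 (0.0966%) with every dosed animal lower. Of these 18 genes, 5 were among them. Rap2a, a small GTPase of the Ras family, had a lowest, median and highest signal of 5.04, 5.46 and 5.56 in vehicle and 5.62, 5.68 and 5.75 at 97.1 mg/kg. All its dosed animals lay above all vehicle animals, by a mean of 0.29 (0.15 to 0.43). Tox3, an HMG-box nuclear protein, had 2.92, 3.04 and 3.15 in vehicle and 3.19, 3.37 and 3.62 in dosed animals. Its groups did not overlap either, with a difference of 0.34 (0.17 to 0.51), but its other probe sets gave 0.04 and 0.02.

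Mmp16, a membrane-anchored matrix metalloproteinase, had 5.13, 5.16 and 5.28 in vehicle and 4.48, 4.85 and 5.00 at 97.1 mg/kg. Every dosed animal lay below every vehicle animal, and the difference was -0.39 (-0.55 to -0.22). Kat6b, a histone acetyltransferase, had 5.56, 5.67 and 5.92 against 5.18, 5.52 and 5.56 in dosed animals. Its difference was -0.24 (-0.38 to -0.11), without overlap, while its other probe sets gave 0.02 and -0.17. Znf865, a zinc finger protein, had 4.69, 4.73 and 4.93 in vehicle and 4.52, 4.55 and 4.58 at 97.1 mg/kg. The groups stood apart by a mean of -0.22 (-0.35 to -0.10), and its other probe sets gave 0.22, -0.07 and -0.02.

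The remaining 13 genes had overlapping groups. Nfkbiz, an inhibitor-like regulator of NF-kB in the nucleus, had 6.44, 6.90 and 7.26 in vehicle and 6.11, 6.22 and 6.44 in dosed animals. Its difference of -0.64 (-0.94 to -0.34) was the widest of the 18, although its second probe set gave 0.02. Nr3c2, the mineralocorticoid receptor, had 6.32, 6.59 and 6.71 in vehicle and 6.69, 6.83 and 7.01 at 97.1 mg/kg, a difference of 0.26 (0.12 to 0.40). Mcm4, a subunit of the helicase that opens DNA for replication, differed by 0.31 (0.14 to 0.48). Dnajb5, a chaperone of the Hsp40 family, differed by 0.33 (0.15 to 0.51), with 0.24 and 0.16 in its other probe sets. Grhl1, an epithelial transcription factor, differed by 0.31, Shank1, a synaptic scaffold, by 0.23, and Pcare, a photoreceptor cilium protein, by 0.27. Other probe sets gave 0.12 for Grhl1 and only 0.04 and 0.06 for Shank1. On the lower side, Rusc2 differed by -0.41, Prps2, a phosphoribosyl pyrophosphate synthetase, by -0.34, Dipk1a by -0.33 and Cradd, a death-domain adaptor, by -0.31. Fam151b differed by -0.29 and Rad50, a DNA break repair protein, by -0.20. Other probe sets gave 0.007 and -0.18 for Prps2, -0.06 for Fam151b and -0.15 and -0.03 for Rad50.

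These genes were picked by their difference from vehicle, and the mean of the 3 lower doses gives a reference without the vehicle animals, although it shares the dosed ones. Rap2a gave 0.12, Tox3 0.23, Nr3c2 0.12, Mcm4 0.16 and Dnajb5 0.11 there. Mmp16 gave -0.12, Nfkbiz -0.22, Prps2 -0.12, Kat6b -0.02 and Znf865 -0.05. Pcare gave 0.25 and Cradd -0.27. Grhl1 and Shank1 gave 0.19 each, Rusc2 -0.17, Dipk1a and Fam151b -0.16 each, and Rad50 -0.10. None of these genes passed the threshold in limma.

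**Figure D3:**
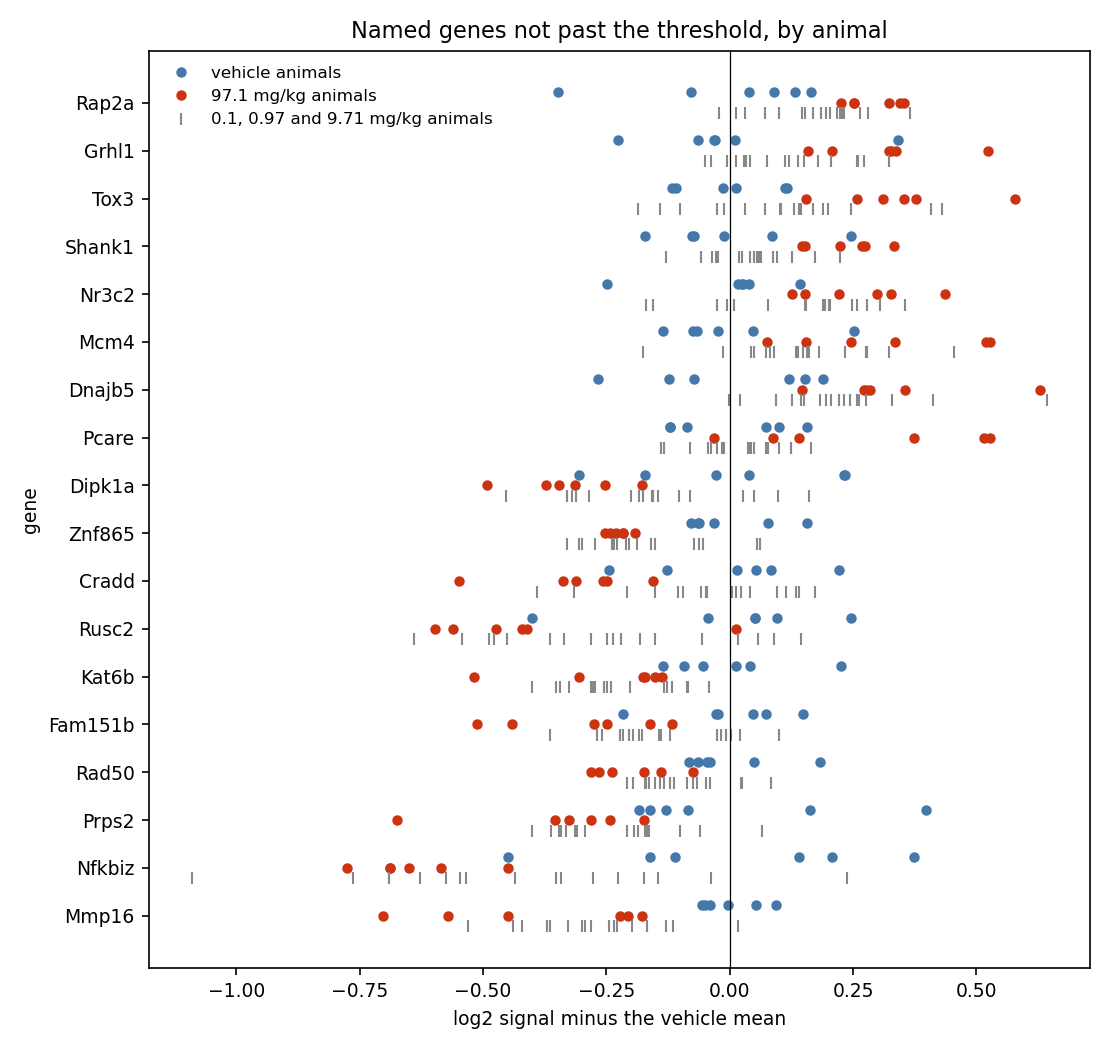
Log2 signal minus the vehicle mean (horizontal) for the 18 named genes that did not pass the threshold, with 6 vehicle animals (blue), 6 animals at 97.1 mg/kg (red) and 18 animals at the lower 3 doses (grey ticks) for each gene. Red points leave the blue range in Rap2a, Tox3, Mmp16, Kat6b and Znf865, and grey ticks overlap the red points of those genes.

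Prcp, a lysosomal carboxypeptidase that cleaves angiotensin and other peptides, was the gene of smallest p on the lower side in both comparisons with lower doses. Its signals were 7.19, 6.53, 6.36, 6.45, 6.41 and 6.34 at 97.1 mg/kg. All 18 animals at 0.1, 0.97 and 9.71 mg/kg lay between 7.16 and 7.83. The difference from those doses was -0.84 (-1.17 to -0.52), with a limma adjusted p of 0.0867, and its second probe set gave -0.89 (limma adjusted p = 0.306). Without animal 1 of the 97.1 mg/kg group it was -0.97 (adjusted p = 0.0129 in limma). The vehicle animals, at 7.29, 7.28, 7.31, 6.47, 6.39 and 6.45, held both low and high signals, and so did those at 970 mg/kg, at 6.47, 7.71, 6.36, 7.33, 7.32 and 6.35. Accordingly, Prcp differed from vehicle by only -0.32 (-0.72 to 0.09). The other genes named by p in these comparisons differed less and did not pass: Usp19, a deubiquitinase, by 0.21 and Akr7a3, an aflatoxin aldehyde reductase, by 0.46 from 9.71 mg/kg; Cxcl12, a chemokine, by -0.26 there; Zbtb7a by 0.19, Aldh1a2 by 0.28 and Fyb1 by -0.24 from the 3 lower doses.

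Genes of the other nuclear receptor pathways of the liver did not pass the threshold. The CAR and PXR targets, which answer many drugs and halogenated compounds, had 11 of 21 measured genes above 0 and a median of 0.02. Cyp3a23-3a1, a PXR target, had 12.43, 12.60 and 12.98 in vehicle and 12.58, 12.86 and 12.98 at 97.1 mg/kg, an overlap with a difference of 0.19 (0.01 to 0.38). The probe set shared by Cyp2b1 and Cyp2b2, CAR targets, differed by 0.22 (-0.23 to 0.66). PPARalpha targets had 14 of 22 above 0 with a median of 0.01, and Cyp4a1, a fatty acid hydroxylase, differed by 0.04 (-0.22 to 0.31). Thyroid hormone response genes had 5 of 12 above 0 and a median of -0.01, and Dio1, the deiodinase that activates thyroxine, differed by -0.10 (-0.29 to 0.09).

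Nrf2 targets, enzymes of glutathione and quinone metabolism, had 16 of 19 measured genes above 0 and a median of 0.15, with 0 past the threshold. The 4 members of smallest p are named here, so they are not typical of the list. Txnrd1, thioredoxin reductase, differed by 0.18 (0.05 to 0.31), Abcc4, an efflux transporter, by 0.27 (0.04 to 0.51) and Ugdh, which makes UDP-glucuronate, by 0.12 (0.02 to 0.22). Hmox1, heme oxygenase, had 8.05, 8.31 and 8.41 in vehicle and 8.25, 8.41 and 8.89 in dosed animals, and differed by 0.20 (0.02 to 0.38). The list score, which averages over the members each one's log2 signal minus its vehicle mean, ran from 0.03 to 0.18 in dosed animals and from -0.07 to 0.11 in vehicle, with 4 of 6 dosed animals above all vehicle animals. In the comparison with the 3 lower doses 16 of 19 lay above 0, beside 50.9% of all probe sets, and the median was 0.08.

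Sterol synthesis genes had 21 of 21 measured members above 0, with a median of 0.19 and 0 past the threshold. Insig1, the sterol sensor of the pathway, differed by 0.44, Sqle, squalene epoxidase, by 0.36, Idi1, an isomerase, by 0.34 and Tm7sf2, a sterol reductase, by 0.30 (0.03 to 0.58). The score ran from -0.01 to 0.52 in dosed and from -0.37 to 0.30 in vehicle animals, which is a wide overlap. All 21 of 21 lay above 0 against the 3 lower doses too, with a median of 0.15, or 0.09 without dosed animal 4. Both comparisons used the same dosed animals. At 970 mg/kg the median difference of this list from vehicle was 0.006. Fatty acid synthesis genes had 7 of 22 above 0 and a median of -0.03 against vehicle, which was 0.04 without vehicle animal 5, but 19 of 22 and 0.11 against the 3 lower doses. Fasn, the synthase itself, differed from vehicle by 0.26 (-0.12 to 0.63).

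Bile acid genes had 5 of 16 measured members above 0, a median of -0.03 and 0 past the threshold, yet their score was lower in all 6 dosed animals (-0.21 to -0.07) than in all vehicle animals (-0.06 to 0.04). The gap was narrow, and 0 single members had groups that stood apart. The score is a mean (-0.13 over the dosed animals), set mostly by Cyp7a1 and Nr0b2. Cyp7a1, which opens the main route from cholesterol to bile acids, had 10.51, 11.61 and 11.93 in vehicle and 9.73, 10.61 and 11.12 at 97.1 mg/kg. The groups overlapped, with a difference of -0.90 (-1.68 to -0.12) and a limma adjusted p of 0.900. Nr0b2, the repressor SHP that bile acids induce through FXR, had 8.30, 8.99 and 9.51 in vehicle and 7.18, 8.14 and 9.09 in dosed animals. Its groups overlapped too, with a difference of -0.88 (-1.65 to -0.11). Against the 3 lower doses Cyp7a1 gave -0.25 and Nr0b2 -0.72, and the list had 5 of 16 above 0 with a median of -0.02. Cyp7a1 was below vehicle at the other doses too, at -0.68, -0.35, -0.92 and -1.07 for 0.1, 0.97, 9.71 and 970 mg/kg. The other 14 bile acid genes ran from -0.13 to 0.14.

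Fasting and glucocorticoid genes had 6 of 20 measured members above 0, a median of -0.10 and 0 past the threshold. The count was 9 of 20 against the 3 lower doses, with a median of -0.01. Pck1, the first committed enzyme of gluconeogenesis, had 13.20, 13.28, 13.46, 13.52, 13.23 and 12.92 in vehicle and 13.37, 13.34, 12.75, 12.14, 12.58 and 12.29 at 97.1 mg/kg. In 4 of 6 dosed animals it was below every vehicle animal, and the difference was -0.52 (-0.93 to -0.11). Igfbp1, a fasting-responsive binding protein, differed by -0.73, with dosed signals from 8.23 to 11.24 that covered much of the vehicle range. Clock genes had 6 of 18 above 0 and a median of -0.07, with Cry2 at -0.25 and Bhlhe41 at 0.26, both transcriptional repressors.

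Immediate early and NF-kB response genes had 10 of 23 above 0, a median of -0.07 and 0 past the threshold, and 12 of 23 above 0 against the 3 lower doses. Egr1, an immediate early transcription factor, had 8.48, 10.01, 10.23, 11.47, 9.37 and 10.42 in vehicle and 9.89, 9.01, 7.66, 7.20, 9.04 and 7.25 in dosed animals. The groups overlapped in part, with 3 dosed animals below every vehicle animal and a difference of -1.66 (-2.93 to -0.38). Nfkbia, the inhibitor IκBα, differed by -0.38 (-0.68 to -0.08) and Jund, an AP-1 subunit, by 0.30 (0.06 to 0.54). Acute phase genes had 9 of 18 above 0 and a median of -0.00.

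Stress and proliferation lists had 0 genes past the threshold. Unfolded protein response genes had 7 of 20 above 0 and a median of -0.04, with Xbp1, its transcription factor, at 0.38 (0.01 to 0.76). Heat shock genes had 11 of 14 above 0 and a median of 0.08, and 12 of 14 with a median of 0.07 against the 3 lower doses. In p53 targets the count against vehicle was 6 of 14, with a median of -0.04. Cdkn1a, the cell cycle inhibitor p21, differed by -0.35 (-0.88 to 0.19). Cell cycle genes had 19 of 30 above 0 and a median of 0.01, and Mki67, a proliferation marker, differed by -0.06 (-0.39 to 0.27). Against the 3 lower doses, 28 of 30 cell cycle genes lay above 0 with a median of 0.10. Animal 3 of the dosed group had a cell cycle score of 0.50, while vehicle scores ran from -0.07 to 0.11. Without it, 20 of 30 genes lay above 0 against the lower doses, with a median of 0.02, and the median against vehicle was -0.08.

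Over all 33 lists, 491 of 562 genes were measured, 36 of them (7.33%) had an unadjusted p under 0.05 in limma, beside 5.42% of all probe sets, and 2 passed. Of the remaining lists outside the cell type markers, the medians were 0.02 for growth hormone and sex-biased genes, -0.06 for metallothionein and iron genes and 0.00 for heme synthesis.

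**Figure D4:**
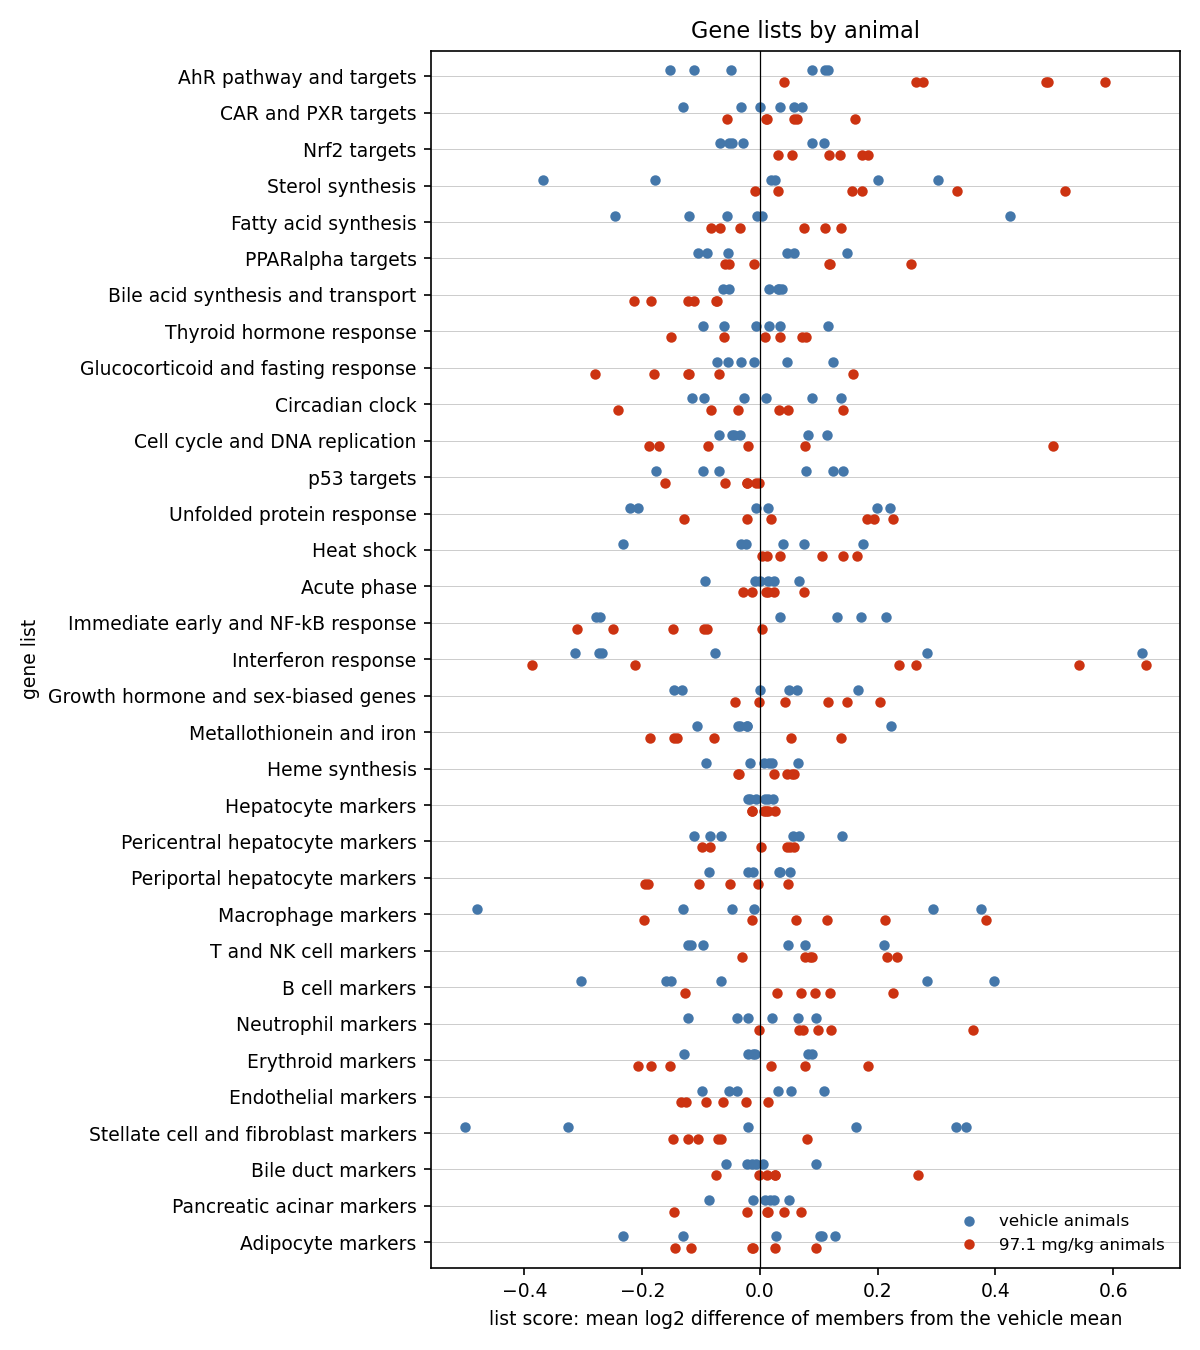
Score of each of the 33 gene lists (horizontal, log2 signal minus the vehicle mean, averaged over members) in 6 vehicle animals (blue) and 6 animals at 97.1 mg/kg (red). Bile acid genes are the list whose red points all lie below the blue ones, by a narrow gap and mostly through Cyp7a1 and Nr0b2. For the AhR list, which holds Cyp1a1, 5 of 6 red points lie above the blue ones.

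Hepatocyte markers stood at the top of the arrays in both groups of this liver series. Alb had 14.66 ± 0.01 at 97.1 mg/kg and 14.67 ± 0.01 in vehicle (SD, n = 6). The 14 hepatocyte markers measured had a median difference of -0.01. In bulk tissue, fewer cells of a type and less RNA per cell cannot be told apart. Pericentral markers had 4 of 10 above 0 and a median of -0.02, 1 of which rose, Cyp1a2 itself, and periportal markers had 2 of 14 above 0 with a median of -0.05. Pck1, named above, is on the periportal list too, and Aldh1b1, a mitochondrial aldehyde dehydrogenase, differed there by -0.45 (-0.82 to -0.07).

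Immune markers leaned above 0 against vehicle, with 10 of 12 macrophage, 13 of 16 T and NK cell, 4 of 5 B cell and 10 of 12 neutrophil markers higher and 0 past the threshold. Their medians were 0.09, 0.14, 0.06 and 0.11, and the macrophage median was -0.01 without vehicle animal 4. Set against the 3 lower doses, 0 of 12 macrophage markers (median -0.10, or -0.04 without dosed animal 6), 6 of 16 T and NK cell, 3 of 5 B cell and 10 of 12 neutrophil markers (6 of 12 without dosed animal 6) lay above 0. Clec4f, a Kupffer cell receptor, differed by 0.19 (-0.16 to 0.53) and Cd3e, a T cell receptor subunit, by 0.19 (0.02 to 0.36). Cd2, another T cell marker, went the other way, at -0.09 (-0.24 to 0.07). Interferon response genes, which these cells and hepatocytes both express, had 17 of 22 above 0 and a median of 0.19. Their score ran from -0.39 to 0.66 in dosed and from -0.31 to 0.65 in vehicle animals, and their median against the 3 lower doses was -0.17, or -0.04 without dosed animal 6. The part of the immune cells in the interferon values was not tested.

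Markers of supporting cells leaned the other way against vehicle, with 1 of 10 endothelial and 3 of 15 stellate and fibroblast markers above 0 and medians of -0.07 and -0.11. Against the 3 lower doses the counts were 1 of 10 and 8 of 15, with medians of -0.04 and 0.00. Bile duct markers had 5 of 7 above 0 and a median of 0.04, and erythroid markers 2 of 8 and -0.09, which were 3 of 7 and 6 of 8 above 0 against the 3 lower doses. Pancreatic acinar markers, a check on neighbouring tissue, had 6 of 13 above 0 and a median of -0.01, and adipocyte markers 5 of 9 and 0.01. Mean log2 signals of the macrophage list ran from 8.18 to 8.76 in dosed and from 7.89 to 8.75 in vehicle animals.

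Differences beyond 2-fold were few and, apart from Cyp1a1, came from genes that also swung widely within vehicle. There were 7 probe sets higher and 6 lower, and 1 of the 13 passed the threshold. Onecut1, a hepatocyte transcription factor, had 5.90, 7.18 and 9.50 in vehicle and 6.42, 9.85 and 10.61 at 97.1 mg/kg, and differed by 1.84 (0.27 to 3.41), with 1.66 in a second probe set. Nfe2, a transcription factor best known in blood cells, differed by 1.49, Trib3, a stress-induced pseudokinase, by 1.09 and Slc25a30, a mitochondrial carrier, by 1.00. Bcl6, a transcriptional repressor under growth hormone control, had 7.50, 9.45 and 10.37 in vehicle and 6.07, 6.61 and 10.08 in dosed animals. Its difference was -1.98 (-3.41 to -0.54), and the groups overlapped because 1 dosed animal was as high as the vehicle animals. Zfp354a differed by -1.21, Sall1 by -1.07 and Abo3 by -1.06. The lowest, median and highest signals of Abo3 were 2.68, 2.87 and 6.98 in vehicle and 2.82, 2.89 and 2.95 in dosed animals. Its median was thus no lower at 97.1 mg/kg, at a signal near the bottom of the arrays. These genes were chosen for their size after the values were seen, and their SDs in vehicle, from 0.51 to 1.82, stand beside a median SD of 0.129 over all probe sets.

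The spread between animals was the same size in both groups over the whole array. The median SD was 0.128 at 97.1 mg/kg and 0.129 in vehicle, and 49.4% of probe sets had the larger SD at 97.1 mg/kg. The spread was tested with limma on each value's absolute deviation from its group mean. It was wider at 97.1 mg/kg for 4 probe sets (0.0129%) and narrower for 0; at an unadjusted p under 0.05 limma gave 1199 wider (3.86%) and 1494 narrower (4.81%). Cyp1a1 was one of the 4, with an SD 7.10 times that of vehicle and a limma adjusted p of 0.0202, although this call was lost when dosed animal 2, 3, 4 or 5 was left out (limma adjusted p from 0.0689 to 0.0986). With the 12 samples alone in the fit, 0 passed. Cyp1a1 had an SD of 0.63 at 970 mg/kg, also above that of vehicle. If its vehicle signal is background, the vehicle SD is not that of its RNA.

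The other 3 were small in absolute terms. Rims1, a synaptic scaffold, had an SD of 0.294 at 97.1 mg/kg and 0.0647 in vehicle, at a signal near the bottom of the arrays of 3.12 and 3.00. Its call was lost without dosed animal 2, 4, 5 or 6 (limma adjusted p from 0.0689 to 0.0986). Tesk1, a kinase that acts on cofilin, had 0.269 and 0.0573, and lost its call without dosed animal 1, 2, 4 or 6 (limma adjusted p from 0.0689 to 0.104), with the replicate block (0.0505) and with array weights (0.0550). With only the compared samples in the fit both calls were lost (limma adjusted p of 0.169 for Rims1 and 0.293 for Tesk1). The fourth, a probe set without a gene name, had 0.261 and 0.0331. Sbno1 and Atp5po came next, both with a limma adjusted p of 0.0601. On the narrow side, Fos, an immediate early gene, had 2.47, 3.46 and 6.69 in vehicle and 2.86, 3.19 and 3.46 in dosed animals in one of its probe sets. Its SD was 0.258 against 1.63, and 1 vehicle animal at 6.69 set much of that; the limma adjusted p was 0.0601. Ltbp1, Cblc and Nrdc had the same adjusted p in limma and Tac3 had 0.0631. On simulated data the test recovered none of the narrowed probe sets and only a part of the widened ones, and made some false calls, so neither the 4 calls nor the count of 0 is firm.

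**Figure D5:**
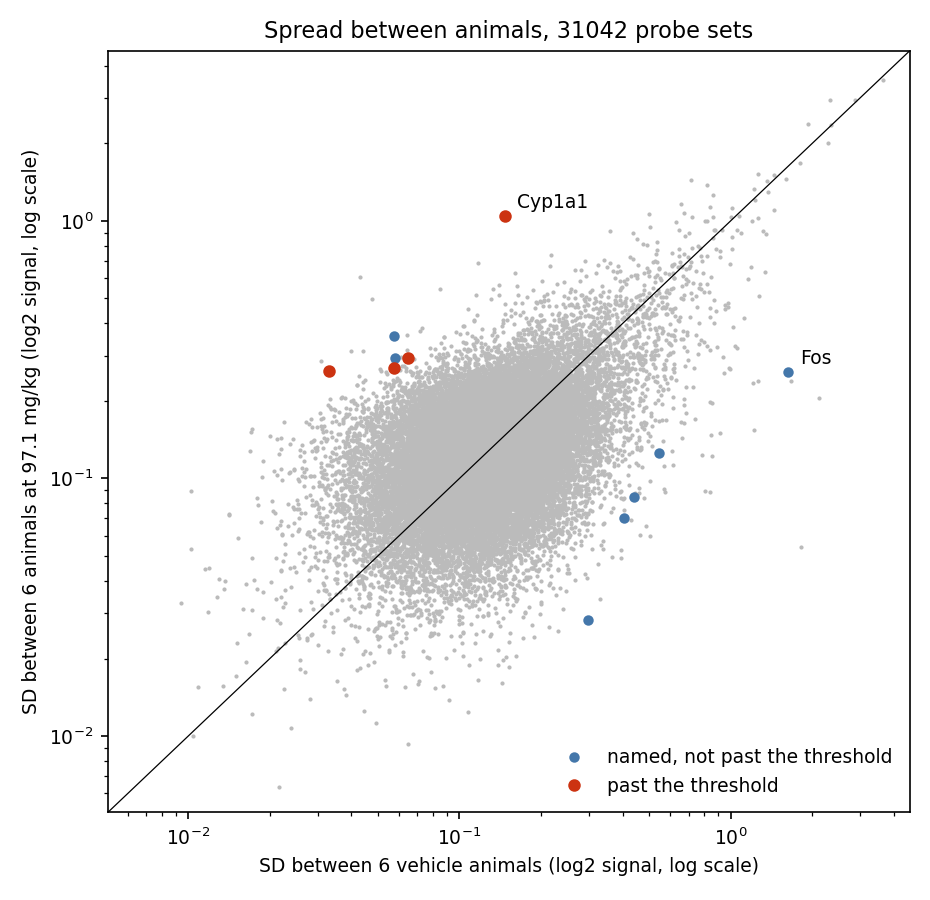
SD between the 6 animals at 97.1 mg/kg (vertical) against the SD between the 6 vehicle animals (horizontal), both of log2 signal on log axes, for 31042 probe sets in grey, with the line of equal SD. Cyp1a1 (1.05 against 0.15) is the highest of the 4 red points, which passed the threshold, and Fos (0.258 against 1.63) lies far below the line.

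The arrays were alike after normalization. Correlations between pairs of the 12 arrays ran from 0.993 to 0.996, and the mean distance between arrays was 42.0 within the dosed group, 44.1 within vehicle and 43.5 between them. Array medians lay between 5.07 and 5.12, but the normalization gives all arrays the same distribution, so close medians follow from it. The 3′ to 5′ difference of the beta-actin controls, a sign of RNA quality, was 1.12 ± 0.05 at 97.1 mg/kg and 1.12 ± 0.07 in vehicle (SD, n = 6).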

How the data were processed

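The authors deposited 1 table of log2 signals for 36 arrays, and per the submitters' processing notes it was made with RMA (affy), whose versions and genome build are not given in the sources used here. RMA subtracts background, gives all arrays the same distribution and so measures relative, not total, RNA. The deposited log2 values were used as they stand, without a filter on low values; 57 control probe sets were left out and 0 values were missing. Of 31042 probe sets, 20826 name 1 gene in the platform annotation, 436 several and 9780 none, and 20758 of the first matched the RefSeq table.

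Groups came from the sample titles. Contrasts were fitted with limma 3.58.1 in R 4.3.3 (lmFit, eBayes) over all 36 samples, two-sided, adjusted over all probe sets at a threshold of 0.05; the spread was tested the same way on absolute deviations, and both steps were tested on simulated data. Arrays give no read depth, so the 6 animals a group limit the precision. The 33 gene lists were drawn from general knowledge of liver, each gene by its probe set of highest mean, and were described without a test. The members, lists and tests were chosen with earlier results of these data known. Genes were named by rule. They were those past the threshold, the 10 of smallest p per direction against vehicle, 3 in the other comparisons and 5 for the spread. Added were a panel of 20 genes, 17 of them measured by probe sets of their own, and the neighbours of Cyp1a1 and Cyp1a2. Up to 4 members a list were named too, those of smallest p, so they are not typical of their list. Exceptions are named as such. The alternatives were the samples compared alone, the replicate number as a block, other moderation, array weights, centring, cyclic loess, the beta-actin difference as a covariate, a filter on low signals, thresholds of 0.01 and 0.1, and each sample left out.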

Additional observations from a re-analysis of the deposited data

Results flagged for a closer look

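In 19 of 172 groups of 6 animals looked at, 1 animal stood far from the other 5 by Dixon's criterion, of which chance gives about 1 in 20. Among the AhR genes, Nqo1 was high in animal 5 of both groups, at 8.96 in vehicle and 9.53 at 97.1 mg/kg. Cyp1b1 (5.35) and Ahrr (3.63) were high in dosed animal 6, Arnt (4.04) was low in dosed animal 5, and Aldh3a1 (3.14) was low in dosed animal 2. Cyp7a1 was low in vehicle animal 6, at 10.51, where the others ran from 11.41 to 11.93.

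Of the other named genes, Prps2 was low (5.99) and Rusc2 high (7.14) in dosed animal 2. Prcp was high in dosed animal 1, at 7.19. In vehicle, Nr3c2 was low in animal 4 (6.32), Akr7a3 was high in animal 3 (11.34) and Zbtb7a was low in the same animal (5.77).

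Among the list scores, dosed animal 6 was high for neutrophil markers (0.36, the others -0.00 to 0.12) and for bile duct markers (0.27, the others -0.07 to 0.03). Dosed animal 2 was low for p53 targets (-0.16) and high for stellate and fibroblast markers (0.080). Vehicle animal 5 was high for fatty acid synthesis genes (0.42) and vehicle animal 1 for metallothionein and iron genes (0.22).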

How the results depend on the processing

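Against vehicle, Cyp1a1 and Cyp1a2 stayed past the threshold in limma under all 11 other settings and with each animal left out, at 3.25 to 3.77 and 0.46 to 0.53 in the latter. Over the 11 settings the highest limma adjusted p was 0.00235 for Cyp1a1 and 0.0425 for Cyp1a2, so Cyp1a2 only just passed in one of them. With only the samples compared in the fit, 1 probe set fell, Polg2, named after its value was seen, by 0.64 on the log2 scale (limma adjusted p = 0.0425, and 0.900 over all 36 samples). Polg2 was below vehicle at the other doses too, at -0.50, -0.44, -0.50 and -0.36 for 0.1, 0.97, 9.71 and 970 mg/kg. Against the 3 lower doses it differed by only -0.16 (-0.46 to 0.15). Signs turned for genes near 0: Arnt was -0.0012 with array weights and ran from -0.028 to 0.069 with 1 animal left out, Mki67 from -0.20 to 0.032, Cyp4a1 from -0.026 to 0.083 and Nqo1 from -0.21 to 0.42.

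Against 9.71 mg/kg, only the samples compared left 1 probe set, with Cyp1a2 at 0.38 and a limma adjusted p of 0.0567; left-out animals gave counts of 1 to 2 and Cyp1a2 values of 0.34 to 0.40. Against the 3 lower doses, the count of lower probe sets was 2 with only the samples compared, 1 with array weights, 1 at a threshold of 0.1 and 0 to 1 with animals left out, all of them Prcp.

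The spread depended most on the settings. The wider count was 0 with only the samples compared, 12 with an intensity trend, 2 with the filter, 0 and 10 at thresholds of 0.01 and 0.1, and 1 to 8 with animals left out, changing by over 1.5 times without dosed animal 2 or 6 or vehicle animal 1, 3, 4 or 5. The narrower count was 25 with the trend, 2 with loess, 20 at 0.1, 1 with the replicate block and 0 to 41 with animals left out, above 0 without dosed animal 1, 2 or 3 or any 1 vehicle animal and highest without vehicle animal 3. For Cyp1a1 the spread difference was 0.83 and did not pass with only the samples compared (limma adjusted p = 0.293), without moderation (0.0724) or at 0.01, and was 0.67 to 0.99 with animals left out. The cause was not tested.

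The replicate number did not pair the samples: residual correlations of equal numbers ran from -0.10 to 0.21 over the 6 pairs of the dosed and vehicle groups, 2 of them over 0.1. The block left both Cyp1a genes past the threshold. Median differences of the 33 lists moved by no more than the SD of the list score in the more variable group. This held when probe sets were averaged, arrays centred or put through loess, or animals left out. Leaving out 1 of 6 animals can hardly exceed that bound, so it is a weak check. With 1 animal left out, 15 of the medians changed sign, among them the macrophage, fatty acid, thyroid, cell cycle and p53 lists. Leaving dosed animals out of the comparison of lists with the lower doses was added after seeing the data. Probe sets with an interval wider than 2-fold, 145 in all, are where the 6 animals a group show least.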
